A study of Homo sapiens with 16 samples.

Results

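The 30 genes described here encode the enzymes that make cholesterol and long-chain fatty acids, together with the proteins that control them. They were chosen by symbol for their place in these pathways: 7 act in the mevalonate pathway, 11 lead from squalene to cholesterol, 4 control the pathway as sterol regulatory element-binding protein (SREBP) factors or their partners, 1 carries sterol, and 7 make and desaturate fatty acids. They lie on 15 chromosomes, for instance SCD at chr10:100347233-100364826, INSIG1 at chr7:155297776-155310235 and FASN at chr17:82078338-82098294 (whole genes, GRCh38). All 30 were listed among 18632 gene symbols at 3 h and 24570 at 6 h. All 30 also passed the filter of a mean of at least 1 TPM (a measure of transcript abundance that corrects for transcript length and is scaled to the same total in each library), as did 12919 symbols at 3 h and 14179 at 6 h.

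RNA was sequenced from 16HBE cells, an established line of human bronchial epithelial cells, kept in low-serum medium and exposed to D. rotundifolia 3× (Dro) or to Ctrl for 3 h or 6 h. D. rotundifolia 3× is an ethanolic extract of the round-leaved sundew that was diluted stepwise in water with vigorous shaking, and Ctrl is the ethanol solvent diluted and shaken alike but without the plant. Dro 3 h, Ctrl 3 h, Dro 6 h and Ctrl 6 h had 4 libraries each, 16 in all. The 6 h time came from another experiment, which had Ctrl cells of its own, so that time and experiment cannot be told apart. The libraries of a group are numbered replicates of 1 cell line, called biological replicates in the study's account of the 3 h experiment, and the p-values measure the spread between them. TPM keeps nothing of a library's depth, and the number of reads behind a value is unknown. The deposited mean normalized counts add up to 31902241 at 3 h and 30205203 at 6 h. The simple epithelial keratin KRT8 was at 5460.4 to 8171 TPM at 6 h. Of the basal cell markers KRT5 was at 36.1 to 82.1 TPM over both times, whereas TP63 stayed at or below 0.172 TPM. Of the markers of ciliated cells FOXJ1 stayed at or below 0.119 TPM, while DNAH5 was at 1.92 to 3.24 TPM. Of the endothelial markers PECAM1 stayed at or below 0.199 TPM, VWF at or below 0.294 TPM and KDR at or below 0.955 TPM, while CDH5 was at 1.89 to 4.85 TPM. Of the leukocyte markers PTPRC stayed at or below 0.308 TPM, CD3E at or below 0.186 TPM, CD14 at or below 0.843 TPM and LYZ at or below 0.876 TPM. The lysosomal macrophage marker CD68 was at 20.7 to 28.4 TPM. Of the fibroblast markers COL1A1 was at 8.86 to 15.8 TPM, while COL1A2 stayed at or below 0.457 TPM and LUM at or below 0.231 TPM.

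Cholesterol is built from acetyl-CoA by way of mevalonate, farnesyl diphosphate and squalene, and fatty acids are built from acetyl-CoA by way of malonyl-CoA. Most of these genes are targets of SREBP1 and SREBP2, transcription factors that are made as membrane proteins of the endoplasmic reticulum. When sterols are scarce, SCAP escorts the SREBPs to the Golgi apparatus, where proteases free the active part. When sterols are plentiful, INSIG proteins hold SCAP back, and transcription of the SREBP targets falls together. SREBP2 acts mainly on cholesterol synthesis and SREBP1 mainly on fatty acid synthesis.

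At 6 h the most abundant of these mRNAs was FDPS, farnesyl diphosphate synthase, with 611 ± 51.1 TPM in Dro and 582 ± 44.6 TPM in Ctrl cells (mean ± SD, n = 4 each). It was followed by FDFT1, which makes squalene, with 434 ± 35.3 TPM in Dro and 424 ± 17.1 TPM in Ctrl cells, and by HMGCS1, which makes HMG-CoA, with 322 ± 41.7 TPM in Dro and 341 ± 27.2 TPM in Ctrl cells. The lowest was SCAP, at 10.7 ± 0.377 TPM in Dro and 10.3 ± 1.21 TPM in Ctrl cells, and the second lowest was PMVK, phosphomevalonate kinase, at 25.1 ± 1.92 TPM in Dro and 25.4 ± 1.21 TPM in Ctrl cells. Summed over the 30 genes, TPM was 4348 ± 313 in Dro and 4355 ± 326 in Ctrl libraries at 6 h, which is 0.396% to 0.472% of a Dro library and 0.400% to 0.478% of a Ctrl library. For FDFT1, LSS and ACACA the 3 h table held a second gene ID beside the one of the 6 h table, with up to 1167 TPM for FDFT1 and up to 424 TPM for LSS, so the levels of these 3 genes and the sums cannot be compared between the tables.

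At 3 h 2 libraries stood apart, and the difference ran across nearly the whole gene set. The sum over the 30 genes was 2984 TPM in the Dro library and 2835 TPM in the Ctrl library of replicate 1, against 5192 to 5395 TPM in the other 3 Dro and 5290.0 to 5630.5 TPM in the other 3 Ctrl ones. Both replicate 1 libraries lay below all 6 other libraries in 29 of 30 genes, where 19.5% of all genes tested did so. The mean log2 of the replicate 1 libraries minus that of the other 6 had a median of -0.81 over the 30 genes and of -0.029 over all genes. It was below -1 in 8 of the 30 genes and in 80 of all 12919, and 13 of the 30 fell among the lowest 1% of all genes. These counts were made after the values had been seen and are a description without a test.

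**Figure D1:**
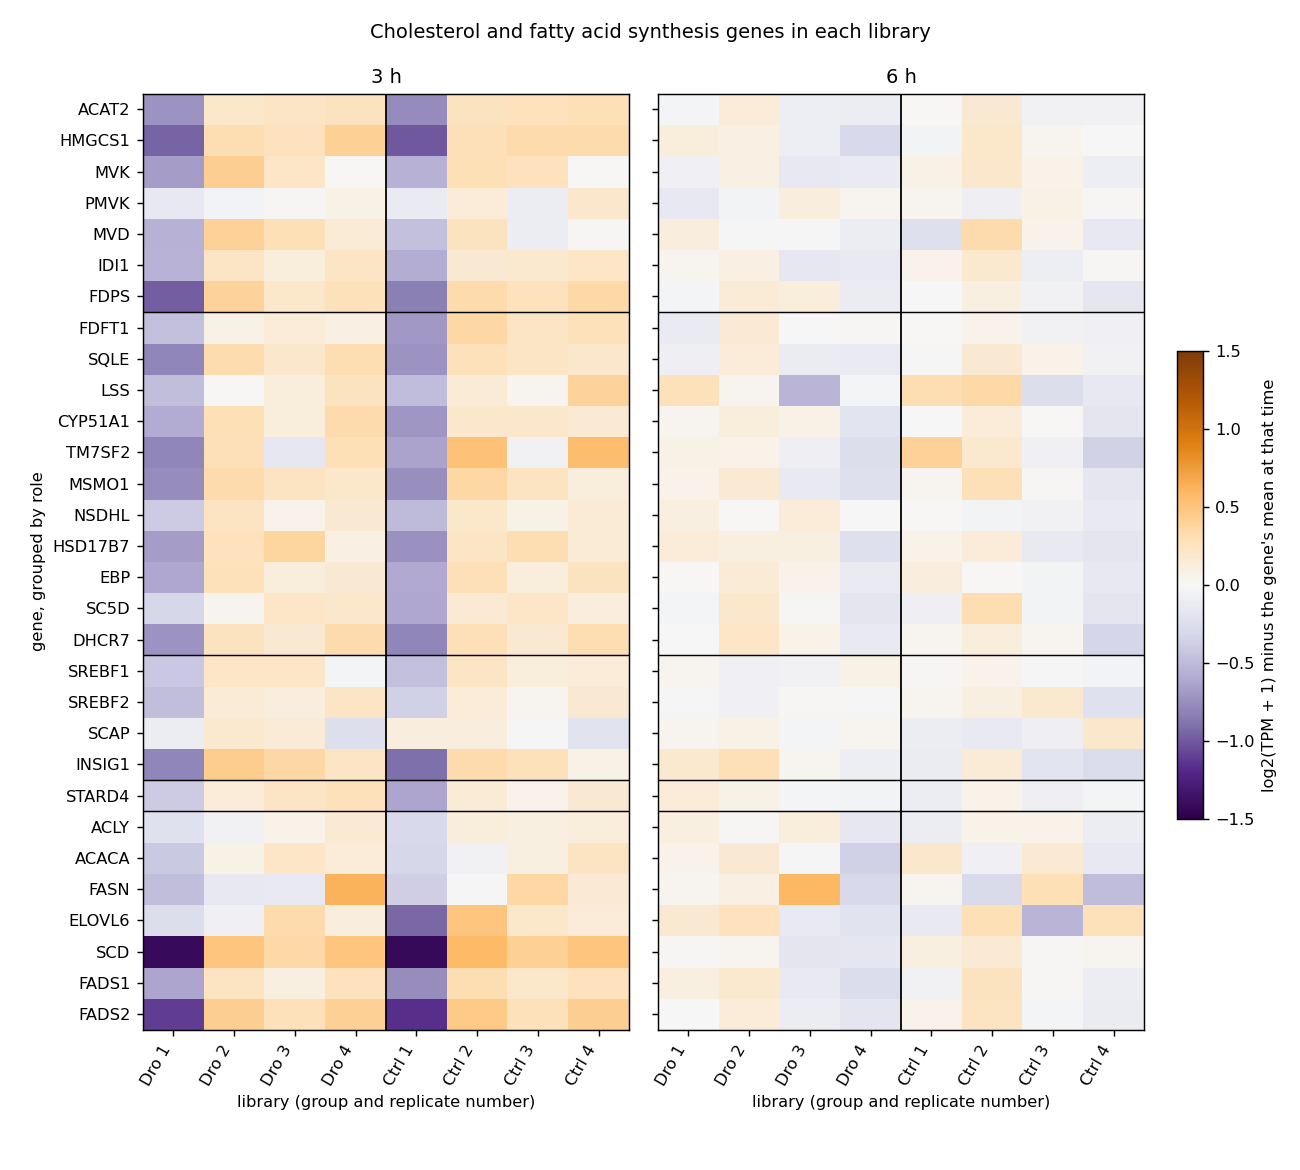
Colour gives log2(TPM + 1) of each gene (rows, ruled off by role) minus that gene's mean over the 8 libraries of the same time, with Dro libraries left of Ctrl libraries (n = 4 each). At 3 h the Dro 1 and Ctrl 1 columns are low in nearly every row, down to SCD with a log2 difference of -1.89, and no column stands apart to that extent at 6 h.

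The largest difference was that of SCD, stearoyl-CoA desaturase, which turns saturated into monounsaturated fatty acids. It was at 38.2 TPM in the Dro and 37.7 TPM in the Ctrl library of replicate 1, against 131 to 146 TPM in Dro and 138 to 154 TPM in Ctrl libraries of the other numbers. FADS2, the desaturase that starts the synthesis of polyunsaturated fatty acids, followed with 87.3 TPM in the Dro and 83.7 TPM in the Ctrl library of replicate 1, against 229.6 to 255 TPM in Dro and 229.7 to 261 TPM in Ctrl libraries of the other numbers. HMGCS1 was at 129.6 TPM in the Dro and 126 TPM in the Ctrl library of replicate 1, against 304 to 336 TPM in Dro and 308 to 318 TPM in Ctrl libraries of the other numbers, and FDPS at 218 TPM in the Dro and 242 TPM in the Ctrl library of replicate 1, against 497 to 565 TPM in Dro and 519 to 546 TPM in Ctrl libraries of the other numbers. In these 4 genes each library of replicate 1 held between 0.259 and 0.451 times the mean of the other 3 of its group. INSIG1, which holds SCAP in the endoplasmic reticulum, had a difference of -1.13 on the log2 scale, and the enzymes SQLE, DHCR7 and MSMO1 had differences of -1.01, -1.01 and -1.0007.

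The transcription factors differed less than most of the enzymes, by -0.59 for SREBF1 and -0.55 for SREBF2. The smallest differences were those of ACLY, ATP citrate lyase (-0.35), PMVK (-0.18) and SCAP (0.012), the single gene in which replicate 1 did not lie below all others. Over all genes, replicate 1 also stood apart more often than the other numbers: 19.5% of genes were lowest and 12.7% highest in both of its libraries, against at most 7.75% and 9.21% for replicates 2, 3 and 4. The summed TPM of 7 epithelial markers was 11840.1 in the Dro and 12195 in the Ctrl library of replicate 1, against 9413 to 11044 in the other Dro and 9805 to 11532 in the other Ctrl libraries. Of these 7 markers 3 lay above and 1 below all others in both libraries of replicate 1, and the part of these markers in the result was not tested. A lower share of one kind of cell and less RNA per cell cannot be told apart in such bulk libraries. The median SD within a group, on the log2 scale, was 0.43 over the 30 genes and 0.15 over all genes at 3 h. Without replicate 1 it was 0.083 over the 30 genes and 0.13 over all genes.

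**Figure D2:**
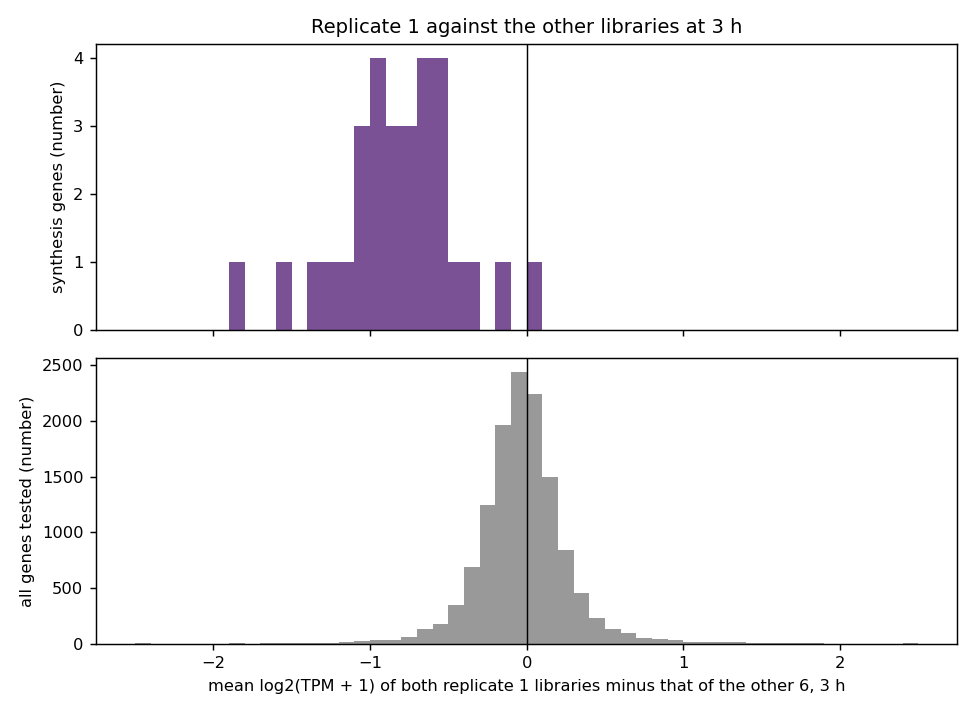
Histograms of the mean log2(TPM + 1) of the Dro and Ctrl libraries of replicate 1 minus that of the other 6 libraries at 3 h, for the 30 synthesis genes (upper) and for all 12919 genes tested (lower), in bins 0.1 wide with values beyond 2.5 in the last bin. The synthesis genes centre on -0.81, whereas all genes centre on -0.029.

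At 6 h the 30 genes varied less between libraries. The median SD within a group was 0.13 over the 30 genes, against 0.15 over all genes. A weaker common tilt was seen: both libraries of replicate 2 lay above the other 6 in 11 of 30 genes, where 4.68% of all genes did, and both of replicate 4 lay below the other 6 in 11 of 30, where 8.34% of all genes did. The summed TPM was 4709 in the Dro and 4776 in the Ctrl library of replicate 2, and 3949 in the Dro and 3988 in the Ctrl library of replicate 4. The highest library was at least 2 times the lowest in 1 of 30 genes at 6 h and in 17 of 30 at 3 h. The share over all genes was not counted for this ratio.

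Since the genes varied together between libraries, the promoters of 5 of them are shown, in the 250 bases before the start of the gene (RefSeq, GRCh38.p14). SREBF2 and SCAP encode the factor and its escort, HMGCS1 an early enzyme of cholesterol synthesis and SCD a desaturase, both with a large difference in replicate 1, and INSIG1 the brake. The starts are those of RefSeq, and the GENCODE gene begins at the same base for SREBF2 and SCD, inside the window shown for HMGCS1 and INSIG1, and upstream of it for SCAP. Capitals mark CCAAT, the box bound by NF-Y, or its reverse complement ATTGG, and in SREBF2 also the motif TCACNCCAC of sterol response elements, in which N is any base.
SREBF2 (chr22:41832855-41833104, plus strand): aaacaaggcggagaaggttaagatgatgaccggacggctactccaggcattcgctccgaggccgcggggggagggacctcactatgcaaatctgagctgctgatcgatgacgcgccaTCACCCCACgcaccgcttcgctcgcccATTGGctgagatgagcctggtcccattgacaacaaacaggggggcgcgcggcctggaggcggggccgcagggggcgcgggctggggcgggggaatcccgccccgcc
HMGCS1 (chr5:43313413-43313662, minus strand): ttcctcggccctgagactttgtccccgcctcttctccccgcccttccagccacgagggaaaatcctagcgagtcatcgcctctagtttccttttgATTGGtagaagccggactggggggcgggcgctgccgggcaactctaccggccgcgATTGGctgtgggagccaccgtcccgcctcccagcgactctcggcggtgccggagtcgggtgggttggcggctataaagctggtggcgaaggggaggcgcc
SCD (chr10:100346983-100347232, plus strand): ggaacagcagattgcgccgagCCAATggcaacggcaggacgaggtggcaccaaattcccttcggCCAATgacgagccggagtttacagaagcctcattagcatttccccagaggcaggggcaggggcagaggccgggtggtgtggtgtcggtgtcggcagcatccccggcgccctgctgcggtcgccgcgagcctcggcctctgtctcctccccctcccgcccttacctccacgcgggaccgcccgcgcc
INSIG1 (chr7:155297628-155297877, plus strand): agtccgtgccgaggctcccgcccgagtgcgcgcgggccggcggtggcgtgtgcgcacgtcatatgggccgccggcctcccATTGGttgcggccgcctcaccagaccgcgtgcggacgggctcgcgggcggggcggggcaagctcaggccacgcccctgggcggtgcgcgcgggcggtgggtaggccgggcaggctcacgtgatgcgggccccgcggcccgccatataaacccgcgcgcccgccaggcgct
SCAP (chr3:47475942-47476191, minus strand): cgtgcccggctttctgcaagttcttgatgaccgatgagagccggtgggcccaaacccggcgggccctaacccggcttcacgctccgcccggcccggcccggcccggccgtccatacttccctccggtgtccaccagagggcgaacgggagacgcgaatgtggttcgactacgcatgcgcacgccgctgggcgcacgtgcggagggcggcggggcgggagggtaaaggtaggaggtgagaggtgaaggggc

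Of the 30 genes, 26 had a promoter in the table, with 35 starts between them, and ACAT2, FDFT1, SQLE and FASN had none. CCAAT stood on either strand in at least 1 promoter of 19 of the 26 genes. Counted by promoter it stood in 23 of their 35, and in 32.01% of all 35116 promoters of the same length. HMGCS1, of which the first of 2 listed starts is shown, and SCD held it 2 times, and SREBF2 and INSIG1 1 time. The 7 genes without these letters in the window were FADS2, FADS1, CYP51A1, ELOVL6, SREBF1, PMVK and SCAP, whose differences of replicate 1 ran from -1.52 for FADS2, -0.92 for FADS1 and -0.87 for CYP51A1 to 0.012 for SCAP. TCACNCCAC on either strand was found in SREBF2 alone, 1 of 26 genes and 1 of 35 promoters, and in 0.883% of all promoters. It did not overlap the CCAAT box of SREBF2. GGGCGG, the box bound by Sp1, stood on either strand in 25 of 26 genes. Counted by promoter it stood in 31 of their 35, and in 42.6% of all promoters. Such matches describe the sequence and are not shown to be bound sites. The shares over all promoters were not limited to genes that passed the TPM filter, as the 30 genes did.

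The comparison of Dro with Ctrl cells at 3 h asked whether the plant extract changed these genes early. None of the 30 passed the threshold (limma on log2(TPM + 1), adjusted p under 0.05 over all genes), where 0 of all 12919 genes did (0%). With DESeq2 the study itself called genes at both times, so a count of 0 here does not show that no gene changed. At an unadjusted p under 0.05 there were 0 of 30, where 2.41% of all genes were found. The log2 changes of Dro over Ctrl lay between -0.18 and 0.15, with a median of 0.0057 over the 30 genes and of 0.015 over all genes, and 17 were above 0 and 13 below. In 0 of 30 genes did the groups fail to overlap, where 1.52% of all genes had groups apart. The median standard error was 0.25, and 7 of 30 intervals (95%) lay within 0.5 of no change on the log2 scale. Without both libraries of replicate 1, 0 of 30 genes were called, the changes lay between -0.20 and 0.23, and 28 of 30 intervals lay within 0.5. At an unadjusted p under 0.05 there was then 1 of 30, FDFT1, where 4.12% of all genes were found, with a log2 change of -0.19 ± 0.046 (SE, unadjusted p = 0.0053, adjusted p = 0.999 from limma). The direction of FDFT1 differed between its gene IDs. In replicates 2, 3 and 4 the ID that the 3 h table alone holds was at 936, 976 and 941 TPM in Dro and 1167, 1048 and 1092 TPM in Ctrl, whereas the ID found in both tables was at 98.0, 95.9 and 96.0 TPM in Dro and 87.7, 97.2 and 89.7 TPM in Ctrl.

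Libraries of the same number deviated together at 3 h, so the number was also put in the fit as a block. With it the median standard error of the 30 genes was 0.046, and 29 of 30 intervals lay within 0.5 of no change, ELOVL6 being the exception with -0.44 to 0.56. Again 0 of 30 genes passed the threshold, where 1 of all genes did (0.00774%). At an unadjusted p under 0.05 there were 2 of 30, TM7SF2 and INSIG1, where 6.87% of all genes were found. The Dro value was above that of the same number in 4 of 4 pairs for 1 gene, INSIG1, where 9.57% of all genes were, and below it in 4 of 4 pairs for 2 genes, TM7SF2 and EBP, where 5.95% of all genes were.

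**Figure D3:**
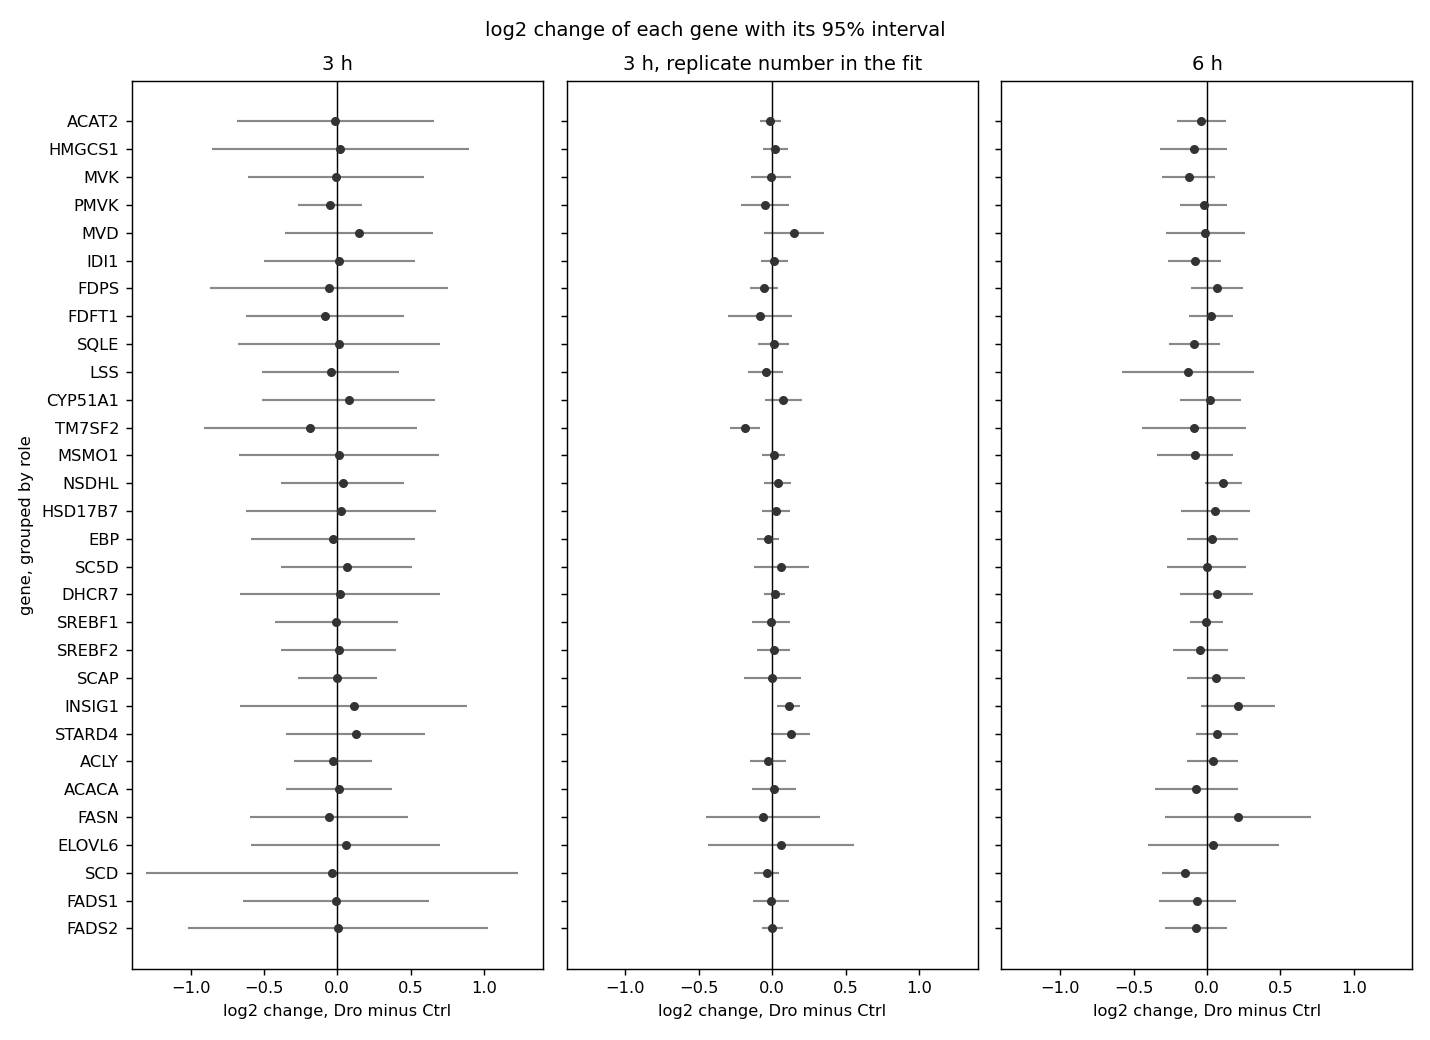
Points give the log2 change of each gene, Dro minus Ctrl, on the log2(TPM + 1) scale, and bars its 95% interval from limma, at 3 h, at 3 h with the replicate number in the fit, and at 6 h (n = 4 libraries per group). All points lie between -0.18 and 0.21, and the wide bars at 3 h, up to -1.30 and 1.23 for SCD, narrow once the replicate number is in the fit.

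At 6 h 0 of 30 genes passed the threshold, where 16 of all 14179 genes did (0.113%), and all 16 were higher in Dro. At an unadjusted p under 0.05 there were 0 of 30, where 8.03% of all genes were found, and the smallest adjusted p among the 30 was 0.647 (limma, Benjamini-Hochberg). The log2 changes lay between -0.15 for SCD and 0.21 for FASN, with a median of -0.0079 over the 30 genes and of 0.0052 over all genes, and 13 were above 0 and 17 below. In 0 of 30 genes were the groups apart, where 5.08% of all genes were. The Dro value was above that of the same number in 4 of 4 pairs for 3 of 30 genes, where 1862 of all 14179 were. It was below in 4 of 4 pairs for 6 of 30, where 1409 of all 14179 were. The intervals of 28 of 30 genes lay within 0.5 of no change and those of all 30 within 1, the widest being those of FASN, -0.28 to 0.71, and LSS, -0.58 to 0.32. A log2 change of -0.81 between Dro and Ctrl would lie outside the intervals of all 30 genes at 6 h. That size is taken for scale from the median difference of replicate 1 at 3 h, which is not a difference between Dro and Ctrl.

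The 7 genes of the mevalonate pathway had means close to each other in the groups at both times. Of them, 3 had log2 changes above 0 and 4 below 0 at 3 h, and 1 above and 6 below at 6 h. ACAT2, which joins acetyl-CoA units and whose gene overlaps TCP1, was at 230.0 ± 63.8 TPM in Dro and 233.5 ± 69.0 TPM in Ctrl cells at 3 h and at 239 ± 18.0 TPM in Dro and 245 ± 18.5 TPM in Ctrl cells at 6 h. HMGCS1 had a log2 change of 0.022 ± 0.38 (SE) at 3 h and of -0.090 ± 0.10 at 6 h. MVD, which decarboxylates mevalonate diphosphate, had the smallest p of the 30 genes at 3 h, with 50.4, 98.8, 91.6 and 82.3 TPM in the Dro libraries and 53.7, 88.4, 69.4 and 75.04 TPM in the Ctrl libraries. Dro was higher in replicates 2, 3 and 4 and lower in replicate 1, the groups overlapped, and the log2 change was 0.15 ± 0.22 (unadjusted p = 0.518, adjusted p = 0.99995 from limma). MVD at 6 h was at 97.1 ± 6.02 TPM in Dro and 98.9 ± 17.9 TPM in Ctrl cells, a log2 change of -0.011 ± 0.12.

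PMVK was at 14.2, 15.4, 16.0 and 16.7 TPM in the Dro libraries and 14.4, 17.5, 14.7 and 18.3 TPM in the Ctrl libraries at 3 h, the narrowest range of the 30 genes at that time, and its log2 change was -0.051 ± 0.10. MVK, mevalonate kinase, was the gene of this role with the largest change at 6 h, with 43.8, 48.5, 41.0 and 41.7 TPM in the Dro libraries and 48.2, 52.4, 47.8 and 43.0 TPM in the Ctrl libraries. The highest Dro value, in replicate 2, exceeded 3 of 4 Ctrl values, and the log2 change was -0.13 ± 0.078 (adjusted p = 0.731, limma). With the block its interval was -0.24 to -0.0075 (adjusted p = 0.366, limma). IDI1, which isomerises the isoprene unit, had log2 changes of 0.013 ± 0.23 at 3 h and -0.085 ± 0.078 at 6 h, and FDPS had -0.057 ± 0.36 and 0.069 ± 0.079, all within 2 standard errors of no change.

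Of the 11 genes from squalene to cholesterol, 7 had log2 changes above 0 and 4 below 0 at 3 h, and 6 above and 5 below at 6 h. The 4 below at 3 h include FDFT1 and LSS, each summed over 2 gene IDs. The LSS ID found at both times was at 58.7, 111, 87.2 and 98.5 TPM in Dro and 63.2, 87.2, 72.9 and 88.7 TPM in Ctrl at 3 h. Its second ID was at 223, 281, 340 and 367 TPM in Dro and 215, 345, 331 and 424 TPM in Ctrl. TM7SF2, a sterol C14 reductase, had the lowest log2 change at 3 h, with 34.9, 74.5, 54.4 and 75.5 TPM in the Dro libraries and 38.7, 87.8, 58.7 and 90.0 TPM in the Ctrl libraries. Each Dro value lay below the Ctrl value of its own number, although the groups overlapped widely. The log2 change was -0.18 ± 0.32 without the block (interval -0.91 to 0.54) and -0.18 ± 0.040 with it (interval -0.29 to -0.082), with an adjusted p of 0.587 by limma with the block. Leaving out replicate 1 gave -0.20 ± 0.20 without a block. At 6 h TM7SF2 was at 86.0 ± 9.03 TPM in Dro and 92.9 ± 20.5 TPM in Ctrl cells, a log2 change of -0.089 ± 0.15.

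NSDHL, which removes the methyl groups at C4 of the sterol, had the second smallest p at 6 h, with 71.1, 66.6, 73.0 and 66.1 TPM in the Dro libraries and 67.0, 64.7, 64.0 and 60.5 TPM in the Ctrl libraries. Of the Dro values, 66.1 and 66.6 TPM lay below the highest Ctrl value, and the log2 change was 0.11 ± 0.055 (adjusted p = 0.665, limma). With the block its interval was 0.0036 to 0.22 (adjusted p = 0.372, limma). LSS, which closes the ring of lanosterol, had the largest change of this role at 6 h, with 109.7, 92.4, 62.4 and 88.4 TPM in the Dro libraries and 113, 115, 75.6 and 81.6 TPM in the Ctrl libraries. The spread within each group was wide, the lowest value of both groups being in replicate 3, and the log2 change was -0.13 ± 0.20.

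The other genes of this stretch had small log2 changes. SQLE, the epoxidase that is a rate-limiting step, had log2 changes of 0.011 ± 0.30 at 3 h and -0.085 ± 0.075 at 6 h, and CYP51A1, which demethylates lanosterol, 0.076 ± 0.26 and 0.022 ± 0.091. For FDFT1 the changes were -0.083 ± 0.24 and 0.029 ± 0.066, for the oxidase MSMO1 0.011 ± 0.30 and -0.082 ± 0.11, and for HSD17B7, a ketoreductase with a near-identical pseudogene that could share its reads, 0.025 ± 0.28 and 0.058 ± 0.10. EBP, a sterol isomerase, and SC5D and DHCR7, which act last, had changes of 0.036 ± 0.075, -0.0019 ± 0.12 and 0.066 ± 0.11 at 6 h.

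Among the control genes the mRNAs of both transcription factors had means close to each other in the groups. SREBF2 was at 59.7, 92.0, 90.1 and 97.7 TPM in the Dro libraries and 64.7, 91.1, 85.4 and 93.5 TPM in the Ctrl libraries at 3 h, with the lowest value of each group in replicate 1. At 6 h SREBF2 was at 98.5, 95.2, 101 and 98.5 TPM in the Dro libraries and 102, 107, 113 and 86.2 TPM in the Ctrl libraries, and the Dro values fell inside the range of the Ctrl values. The log2 changes of SREBF2 were 0.0097 ± 0.17 at 3 h and -0.047 ± 0.082 at 6 h. SREBF1 was at 91.5, 142, 142 and 120.0 TPM in the Dro libraries and 88.5, 143, 133 and 134 TPM in the Ctrl libraries at 3 h, and the 2 lowest values were again those of replicate 1. At 6 h SREBF1 was at 139, 131, 132 and 144 TPM in the Dro libraries and 138, 142, 135 and 132 TPM in the Ctrl libraries, the narrowest range of the 30 genes, and its log2 change of -0.0048 ± 0.050 had an interval of -0.12 to 0.11. SCAP had log2 changes of 0.00083 ± 0.12 at 3 h and 0.061 ± 0.085 at 6 h.

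INSIG1 had higher means in Dro at both times. At 3 h it was at 49.7, 118, 112 and 102 TPM in the Dro libraries and 46.0, 110.0, 105 and 91.6 TPM in the Ctrl libraries, each Dro value lying above the Ctrl value of its number. The log2 change was 0.11 ± 0.34 without the block and 0.11 ± 0.031 with it (interval 0.033 to 0.19, adjusted p = 0.644 by limma with the block). At 6 h INSIG1 was at 95.3, 103, 86.2 and 78.7 TPM in the Dro libraries and 77.9, 93.2, 73.3 and 69.5 TPM in the Ctrl libraries. The highest Ctrl value, in replicate 2, exceeded 2 of 4 Dro values, although each Dro value again lay above the Ctrl value of its number. The log2 change was 0.21 ± 0.11 with an interval of -0.044 to 0.46 (adjusted p = 0.688, limma). With the block it was 0.21 ± 0.042 with an interval of 0.10 to 0.31 (adjusted p = 0.187, limma). STARD4, which carries cholesterol between membranes, was at 29.4, 43.0, 45.8 and 47.6 TPM in the Dro libraries and 24.9, 43.3, 40.5 and 44.1 TPM in the Ctrl libraries at 3 h and had a log2 change of 0.13 ± 0.21. At 6 h STARD4 was at 52.3, 49.99, 46.3 and 46.2 TPM in the Dro libraries and 44.2, 49.6, 44.8 and 46.6 TPM in the Ctrl libraries, the groups overlapped, and the log2 change was 0.071 ± 0.063.

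**Figure D4:**
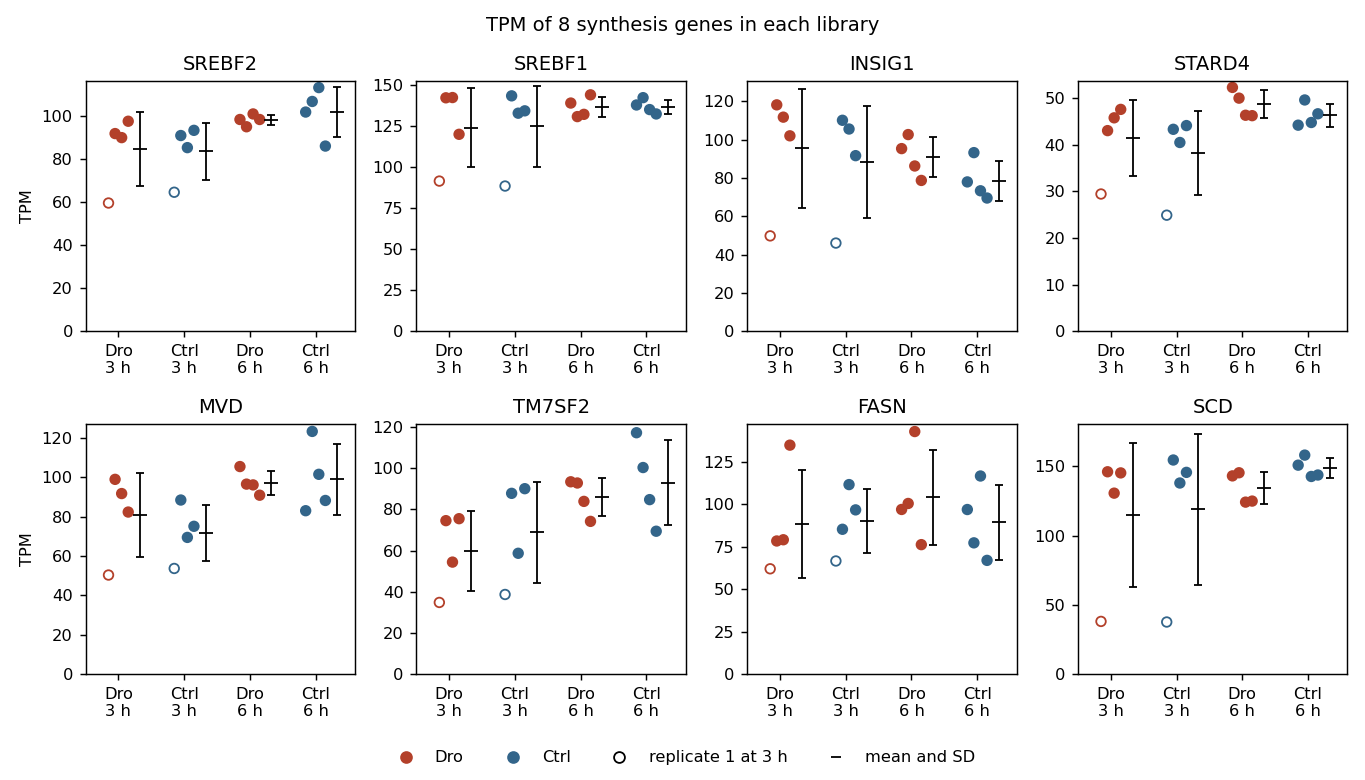
TPM of 8 genes in each library by group and time, Dro left of Ctrl, with the mean and SD of 4 libraries at the right of each group and open circles for replicate 1 at 3 h. The open circles lie lowest in every panel at 3 h, and no pair of groups at the same time is separate: INSIG1 at 6 h is at 78.7 to 103 TPM in Dro and 69.5 to 93.2 TPM in Ctrl.

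Of the 7 genes of fatty acid synthesis and desaturation, 3 had log2 changes above 0 and 4 below 0 at each time. FASN, fatty acid synthase, had the largest change at 6 h, with 96.9, 100.4, 143 and 76.2 TPM in the Dro libraries and 96.9, 77.3, 117 and 67.0 TPM in the Ctrl libraries. Replicate 3 was highest and replicate 4 lowest in both groups, and the log2 change was 0.21 ± 0.22 (adjusted p = 0.854, limma). With the block its interval was 0.035 to 0.39 (adjusted p = 0.328, limma). At 3 h FASN was at 88.6 ± 31.7 TPM in Dro and 90.0 ± 18.9 TPM in Ctrl cells, a log2 change of -0.059 ± 0.24. SCD had the smallest p of the 30 genes at 6 h, with 143, 145, 124 and 125 TPM in the Dro libraries and 151, 158, 143 and 144 TPM in the Ctrl libraries. The Dro values of replicates 1 and 2 lay just above the lowest Ctrl value, so that the groups overlapped, although each lay below the Ctrl value of its number. The log2 change was -0.15 ± 0.070 with an interval of -0.31 to 0.010 (unadjusted p = 0.0629, adjusted p = 0.647 from limma). With the block the interval was -0.25 to -0.050 (adjusted p = 0.248, limma).

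At 3 h the log2 change of SCD was -0.037 ± 0.56, and that of the desaturase FADS2 0.0017 ± 0.45. At 6 h FADS2 was at 233 ± 22.3 TPM in Dro and 246 ± 26.4 TPM in Ctrl cells, and FADS1, whose gene overlaps that of FADS2 on the opposite strand, at 151 ± 21.3 TPM in Dro and 157 ± 17.8 TPM in Ctrl cells. ACLY, which supplies cytosolic acetyl-CoA, had log2 changes of -0.028 ± 0.12 at 3 h and 0.039 ± 0.077 at 6 h, and ACACA, which makes malonyl-CoA, had 0.012 ± 0.16 and -0.072 ± 0.12. ELOVL6, which elongates palmitate, had 0.058 ± 0.28 and 0.043 ± 0.20.

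Whether the change at 6 h differed from that at 3 h was tested as an interaction over all 16 libraries. In 0 of 30 genes did it pass the threshold, where 1 of 12623 genes did (0.00792%). With the replicate block it passed in 0 of 30 as well, where 32 of 12623 genes did. The values that follow are without the block. At an unadjusted p under 0.05 there were 0 of 30, where 3.49% of all genes were found, and the differences between the log2 changes lay between -0.16 for MVD and 0.27 for FASN (limma, smallest adjusted p = 0.999).

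Genes of the neighbouring pathways were set beside them. Of 75 that were tested at 3 h and of 75 at 6 h, 0 passed the threshold in either direction at either time (limma). GPAM, a gene of these lists, was called higher in Dro at 3 h by the study itself with DESeq2. A count of 0 here therefore does not show that no neighbouring gene changed. The counts at an unadjusted p under 0.05 that follow stand beside 8.03% of all genes at 6 h and 2.41% at 3 h. The median log2 change of each of the 7 lists lay between -0.025 and 0.060 at 3 h and between -0.044 and 0.028 at 6 h. Of the LXR pathway, the oxysterol receptors and sterol exporters, 6 of 8 were tested at each time and 1 had an unadjusted p under 0.05 at 6 h. This was NR1H2, the LXR beta receptor, with 25.6, 25.6, 27.4 and 27.99 TPM in the Dro libraries and 22.6, 22.7, 22.5 and 21.3 TPM in the Ctrl libraries. Every Dro value lay above every Ctrl value, as groups lay apart in 5.08% of all genes, and the log2 change was 0.25 ± 0.056 (adjusted p = 0.222, limma). Of 10 genes of sterol trafficking and esterification, 1 had an unadjusted p under 0.05 at 6 h, GRAMD1B, which moves cholesterol from the plasma membrane, with 3.09, 4.12, 5.73 and 2.96 TPM in the Dro libraries and 1.84, 2.18, 2.13 and 1.53 TPM in the Ctrl libraries, again without overlap, and a log2 change of 0.74 ± 0.18 (adjusted p = 0.259, limma). Of 16 genes of fatty acid elongation and activation, 3 did, ACSL3, SCD5 and MID1IP1, with log2 changes of -0.13 ± 0.050, -0.27 ± 0.11 and 0.24 ± 0.087. Of 10 genes of glycerolipid synthesis, 1 did at 6 h, DGAT2 (0.18 ± 0.071), and 1 at 3 h, GPAM (0.48 ± 0.19). None of 12 genes of SREBP processing and sterol-regulated degradation did at either time. Of 10 genes of the isoprenoid branches, 1 did at 3 h and 0 did at 6 h, and of 11 genes of fatty acid oxidation 1 did at 3 h and 0 did at 6 h.

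In the libraries of replicate 1 at 3 h the medians of these lists lay closer to 0 than that of the synthesis genes. The median log2 difference from the other libraries was -0.065 over the 12 genes of SREBP processing, 3 of which were below all others in both libraries, and -0.20 over the 16 of fatty acid elongation and activation, 8 of which were. Of all genes tested, 19.5% were below all others in both libraries. ACSS2, which makes acetyl-CoA from acetate, was at 93.6 TPM in the Dro and 103 TPM in the Ctrl library of replicate 1, against 159 to 196 TPM in Dro and 154 to 182 TPM in Ctrl libraries of the other numbers. ACSL1 and ACSL3, which activate long-chain fatty acids, had log2 differences of -0.68 and -0.65, and TMEM97, a sterol-binding protein, of -0.57. The medians of the other 5 lists lay between -0.24 and -0.013. The proteases of the SREBPs, MBTPS1 and MBTPS2, had differences of -0.18 and -0.017, and INSIG2 of 0.033.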

How the data were processed

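RNA of 16HBE cells was prepared as stranded mRNA libraries and sequenced by the authors as single reads of 75 bases. Per the study's methods, the authors quantified transcripts with Salmon 0.13.1 with GC correction against GENCODE 32, summed them to genes, dropped genes with low read counts and tested with DESeq2 1.22.2 in R 3.5.3, with FastQC for read quality. The deposited tables, 1 per time, hold the authors' TPM values per library and their mean normalized count over the 8 libraries of that time, a signal per gene scaled by library size and used here only as a sum. Columns with the authors' own fold changes and p-values were not used. All value columns of single libraries matched a label, and the number that did not was 0.

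TPM was summed over the gene IDs of a symbol. At 6 h 84 gene IDs stood on repeated rows and were kept once, and at 3 h FDFT1, LSS and ACACA had 2 gene IDs each. Of the 33 IDs of the 30 genes, 30 were in GENCODE 44. No pair of libraries held identical values. Symbols that averaged 1 TPM or more were tested on log2(TPM + 1) with limma 3.58.1 (R 4.3.3, two-sided, variance trend, Benjamini-Hochberg over all symbols, threshold 0.05), at each time alone without the replicate number, and in 1 interaction fit over 16 libraries. A fold change on this scale understates that of low genes. The fits without the block were tested on simulated data in which each library was drawn independently. That test therefore does not cover a deviation shared by libraries of the same number, nor the blocked fits. Tables and plots used Python 3.11.15, pandas 2.3.3, numpy 2.4.6 and matplotlib 3.10.9.

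Replicate numbers come from the labels. At 3 h the deviations of same-numbered libraries from their group means correlated at 0.469, 0.255, 0.219 and 0.187 over genes for numbers 1 to 4, every library correlating best with its own number. The numbers were therefore taken to pair the 3 h libraries, and blocked values are given at that time. At 6 h blocked values of single genes are given only for the 5 with an unadjusted p under 0.05 with the block, chosen after the values had been seen. The 30 genes and the other lists were chosen with earlier results of these data known. Values in every library are given for genes called at either time, for the 4 with the smallest p at each time, for the largest change of each role at 6 h and for SREBF1, SREBF2 and INSIG1, and of each other list up to 3 genes with the smallest p at 6 h were to be named. SCD, FADS2, HMGCS1, FDPS and other genes named for replicate 1, and the genes named at 3 h from other lists, were chosen after their values had been seen. Alternatives were a replicate block, pseudocounts of 0.1 and 5, no filter and a mean of at least 5 TPM, gene IDs tested alone, median centring, quantile normalization, no variance trend, and leaving out each library or replicate number. Promoter sequences, 250 bases before each start, are from RefSeq on GRCh38.p14, and gene positions from GENCODE 44 on GRCh38. Some genes of neighbouring pathways are not reported here by name.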

Additional observations from a re-analysis of the deposited data

Results flagged for a closer look

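In each of the 120 groups of 4 libraries formed by the 30 genes, 2 times and both treatments, the gap of the lowest or highest library to its neighbour was set against the group's range. In 20 groups the gap over the range exceeded the 95% critical value of Dixon's test, where chance gives about 1 in 20 groups. The genes share their libraries and are not independent, and 18 of the 20 were the library of replicate 1 at 3 h, always the lowest.

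In the Dro group at 3 h the value of replicate 1 was far below the others for ACAT2 with 134 TPM, HMGCS1 with 129.6 TPM, FDFT1 with 711 TPM, SQLE with 47.9 TPM, MSMO1 with 91.4 TPM, SCD with 38.2 TPM and FADS2 with 87.3 TPM. In the Ctrl group at 3 h replicate 1 was far below the others for ACAT2 with 130.2 TPM, HMGCS1 with 126 TPM, IDI1 with 41.2 TPM, FDPS with 242 TPM, FDFT1 with 605 TPM, SQLE with 50.4 TPM, CYP51A1 with 44.9 TPM, SC5D with 35.1 TPM, ACLY with 138 TPM, SCD with 37.7 TPM and FADS1 with 72.7 TPM. Replicate 1 was thus apart in both groups for ACAT2, HMGCS1, FDFT1, SQLE and SCD.

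The remaining 2 were at 6 h, where HSD17B7 was at 72.1 TPM in replicate 4 of the Dro group, below the other Dro values, and SCAP at 12.1 TPM in replicate 4 of the Ctrl group, above the other Ctrl values.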

How the results depend on the processing

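None of the 30 genes passed the threshold under any of the 21 alternatives at either time (limma, 0 of 30). Among all genes 0 were called at 3 h, against 1 with the replicate block, 1 with gene IDs tested alone and 0 to 2 when a library or replicate number was left out, 2 without Ctrl replicate 1 or number 1 and 1 without Dro replicate 3, Ctrl replicate 2 or number 3. At 6 h 16 were called, against 7 without a filter on low values and 3 to 47 when a library or number was left out, 47 without Dro replicate 1, 5, 4 and 7 without Dro replicates 2, 3 and 4, 5, 12, 8 and 10 without Ctrl replicates 1 to 4, and 26, 5, 4 and 3 without numbers 1 to 4. Treated and Ctrl cells shared culture plates per the study's methods, but no source used here ties a number to a plate, and at 6 h same-numbered libraries correlated at 0.0564, 0.0973, 0.158 and 0.204, not every library best with its own number. With the replicate block 40 of all genes were called there, none of them among the 30, of which 5 had an unadjusted p under 0.05, as did 1854 of all 14179 (FASN, INSIG1, MVK, NSDHL and SCD, smallest adjusted p = 0.187). For the difference between times the block gave 32 calls among 12623 genes, against 1 without it, and 0 of 30, with 1 of 30 (SCD, adjusted p = 0.437) and 1433 of all at an unadjusted p under 0.05. The block changed no call of the 30. The sign of the log2 change turned in 123 of 630 combinations of gene and alternative at 3 h, in every gene but MVD, and in 38 of 630 at 6 h, none of them in FADS2, FASN, FDPS, HMGCS1, IDI1, INSIG1, MVK, NSDHL, SCAP, SCD, SQLE and STARD4. The changes stayed within 0.52 of 0 at 3 h and 0.35 at 6 h. At 3 h SCD was at -0.52 without Ctrl replicate 1 and 0.43 without Dro replicate 1, and FADS2 at -0.39 and 0.37. Without Ctrl replicate 1 FDFT1 was at -0.33 and ELOVL6 at -0.25. Other genes moved further than FDFT1 and ELOVL6 over the alternatives at 3 h. TM7SF2 reached -0.43, INSIG1 0.40, MVD 0.36, FDPS -0.34 and HMGCS1 0.34. The causes were not tested. Without read counts per library, the error of counting cannot be set apart from the spread between replicates.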
